A study of Mus musculus with 19 samples.

Results

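Fto and the mouse AlkB homologs Alkbh1 to Alkbh8 were followed across 4 populations of sorted CD4 T cells. These 9 genes, of 35019 on the array, were taken by name, and all 12 of their probes, of 55681 gene probes, were used. Fto was chosen because its level had separated GFP-RFP+ from GFP-RFP- cells in these same arrays, so its values in that comparison are given as a description. All mice had a C57Bl/6 background, were adult females, and carried 2 reporters, Tg IL-2-GFP x FOXP3mRFP, so every population shares both transgenes. GFP reports IL-2, the growth factor of activated T cells, and RFP reports Foxp3, the transcription factor of regulatory T cells. CD4 T cells of the spleen and lymph nodes gave 4 arrays of GFP+RFP+ cells, 5 of GFP-RFP+ cells, 5 of GFP+RFP- cells and 5 of GFP-RFP- cells. The labels call the RFP+ cells regulatory in the subtype but conventional in the cell type field. They do not say whether the replicates came from separate mice, so the p-values below cover only the variation among these arrays, part of which may be technical.

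Fto and the AlkB homologs are dioxygenases that use iron and 2-oxoglutarate to oxidise methyl groups, which are then released, or other substrates. Fto and Alkbh5 remove the methyl group of N6-methyladenosine in RNA, a mark placed by the Mettl3-Mettl14 writer complex and bound by YTH-domain readers. Alkbh2 and Alkbh3 repair alkylated bases in DNA, Alkbh1 and Alkbh8 act on transfer RNA, and Alkbh4, Alkbh6 and Alkbh7 are less well defined. In mouse CD4 T cells the writer Mettl3 is known to be needed for the homeostasis of naive cells.

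Each probe is a 60-base oligonucleotide, so what an array reports for a gene depends on where that probe lies. The parts printed here show the probes the results turn on, all written 5′ to 3′ on the transcript's strand with positions in mm9, and capitals mark AATAAA, the core of the signal at which messenger RNA is cut and polyadenylated. The Fto probe lies on the plus strand at chr8:94191851-94191910, from base 3076 of the transcript it was designed on, and its last 30 bases hold no AATAAA. The 3 Alkbh5 probes lie on the plus strand at chr11:60369340-60369399, chr11:60370540-60370599 and chr11:60371586-60371645. On the transcript they start at bases 3350, 4550 and 5596. Their spacing of 1200 and 1046 bases is the same on the genome and on the transcript, so no intron separates them in this annotation.
Fto: tagttggcttcatatgtcacagactggccc
Alkbh5 probe 1: tgtgtgctctacAATAAAaaccaaatctaa
Alkbh5 probe 2: tgtaactctctgtagttagttgttgcccac
Alkbh5 probe 3: attgtattaatttcgattgaaatttcttag

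The 2 Alkbh7 probes are shown because they gave very different detection of the same gene. They lie on the plus strand at chr17:57137925-57137984 and chr17:57138500-57138559, 333 bases apart on the transcript and 575 apart on the genome. In probe 1 the capitals mark the match to CATNNNGAC, 1 of 4 patterns (also CACNNNGAC, CATNNNGAT and CACNNNGAT) that spell codons for histidine, any residue and aspartate, with which this enzyme family holds its iron. Any of these patterns was present in 4.54% of all probes and on the opposite strand in 4.93%, and also in the probe of Alkbh4, so a match alone is a description. In probe 2 the capitals mark AATAAA.
Alkbh7 probe 1: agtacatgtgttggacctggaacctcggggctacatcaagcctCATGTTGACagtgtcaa
Alkbh7 probe 2: tccatatttgtgAATAAAgtagggaaaatg

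The probes of Alkbh4 on the plus strand at chr5:136617421-136617480 and of Alkbh2 on the minus strand at chr5:114573947-114574006 hold AATAAA as well. They are shown because Alkbh4 was seen on every array and Alkbh2 on almost none.
Alkbh4: gataaaattcatAATAAAagaaaaaccttg
Alkbh2: ttttacctactaagaAATAAAatgtcttta

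AATAAA was thus present in 4 of the 12 family probes, against 10.1% of all probes. Its presence did not go with detection over the whole array: 12.5% of probes with it and 11.8% of those without it were well above background on every array. Its reverse complement TTTATT was present in none of the 12 and in 3.74% of all probes. The remaining probes lie at chr12:88769637-88769696 on the minus strand for Alkbh1, chr2:93820827-93820886 on the minus strand for Alkbh3, chr7:31099185-31099244 on the plus strand for Alkbh6 and chr9:3385761-3385820 on the plus strand for Alkbh8.

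The arrays differed in how much they detected. Probes well above background, as the scanner software flags them, made up 26.1 to 38.1% of probes on GFP+RFP+ arrays, 22.0 to 39.4% on GFP-RFP+ arrays, 30.2 to 41.1% on GFP+RFP- arrays and 37.8 to 44.9% on GFP-RFP- arrays. Levels below are therefore on a log2 scale relative to the 75th percentile of each array, taken over probes well above background on all 19 arrays. Of the 9 T cell identity genes, 6 to 9 were detected on each array. Foxp3 was well above background on all 19 arrays, with mean levels of -6.13 ± 0.84 in GFP+RFP+ cells, -5.35 ± 3.32 in GFP-RFP+ cells, -7.63 ± 0.61 in GFP+RFP- cells and -7.89 ± 0.49 in GFP-RFP- cells (SD). The difference between GFP-RFP+ and GFP-RFP- cells, 2.55, did not pass the test (limma adjusted p = 0.19). Il2 was detected on 1 of 4 GFP+RFP+ arrays, 0 of 5 GFP-RFP+ arrays, 2 of 5 GFP+RFP- arrays and 2 of 5 GFP-RFP- arrays.

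Fto was either bright or at background, with nothing between. In GFP+RFP+ cells the processed signal, in the scanner's intensity units, was 8.48, 4.57, 2223 and 3.50 for replicates 1, 3, 4 and 5. In GFP-RFP+ cells it was 5.17, 3.50, 6.69, 3.82 and 4.05. In GFP+RFP- cells it was 3563, 5.98, 14.2, 4.10 and 885, and in GFP-RFP- cells it was 14748, 14802, 8487, 16436 and 3374. Fto was thus well above background on 1 of 4 GFP+RFP+ arrays, 0 of 5 GFP-RFP+ arrays, 2 of 5 GFP+RFP- arrays and all GFP-RFP- arrays. The lowest signal called above background, 885, was 62.4 times the highest one that was not, 14.2. In sorted bulk cells, fewer cells with Fto message and less message per cell cannot be told apart.

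**Figure D1:**
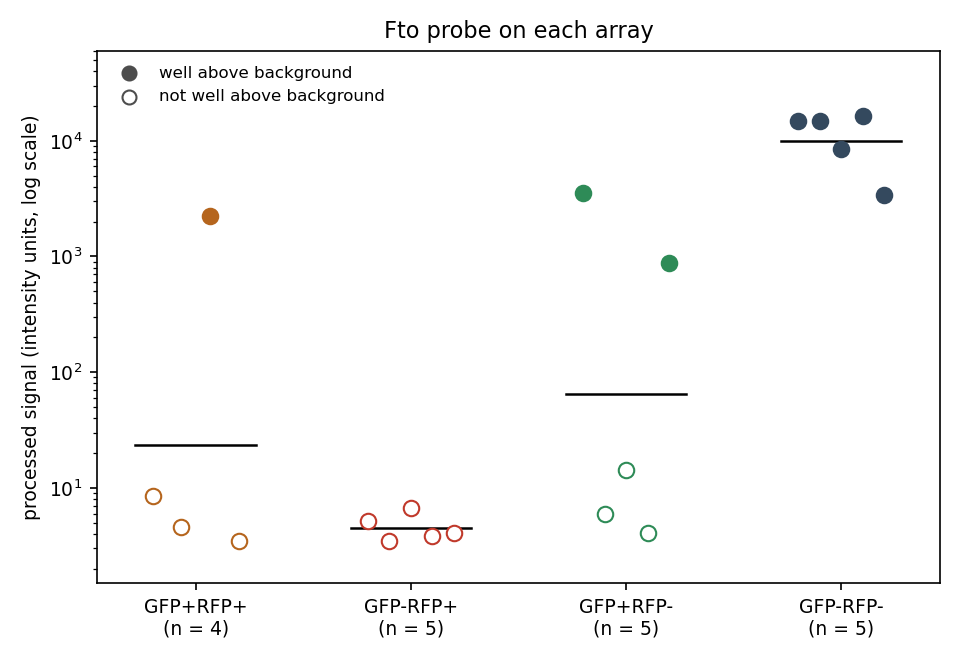
Processed signal of the Fto probe (y axis, intensity units, log scale) in the 4 sorted populations (x axis). Each point is 1 array, filled where the probe was well above background, and the line is the mean on the log scale. All 5 GFP-RFP- arrays lie at 3374 or above and all 5 GFP-RFP+ arrays at 6.69 or below, while the GFP+RFP+ and GFP+RFP- arrays fall on both sides.

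Relative to the array's 75th percentile, Fto averaged -10.49 ± 0.51 in GFP-RFP+ cells and -0.56 ± 0.83 in GFP-RFP- cells (SD, n = 5 each). The difference in the limma model was -9.93 ± 1.82 (SE), and the groups did not overlap. No GFP-RFP+ array measured the probe above background, so the fold is given as a bound. On these arrays the mean of Fto was at least 292-fold lower in GFP-RFP+ cells. The bound, here and below, sets the mean of the bright group against a floor. That floor is the lowest signal that the dim group's arrays called above background, or the dim probe's own where that is higher. The bound allows for the detection limit but not for the variation among arrays or for the processing. Under normexp, another background correction, the Fto difference was smaller, at -5.96. Of the 20620 genes tested, 11264 were detected on every GFP-RFP- array, and 166 of them, or 0.805% of the genes tested, were detected on no GFP-RFP+ array. This is the comparison that singled out Fto. Within the 3 slides the difference was -9.77, -10.1 and -9.10.

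The share of probes detected moved with Fto. The 8 arrays that detected Fto had 37.8 to 44.9% of probes above background, and the 11 others had 22.0 to 39.4%. Among the 11, GFP-RFP+ replicate 3 detected 39.4% of probes, within the range of the GFP-RFP- arrays, and had an Fto signal of 6.69. With that percent added to the model as a covariate, the difference between GFP-RFP+ and GFP-RFP- cells was -7.20 ± 2.33 (SE). Without the 3 arrays under 30% it was -10.0 ± 2.31. The part of detection in the difference was otherwise not tested.

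**Figure D2:**
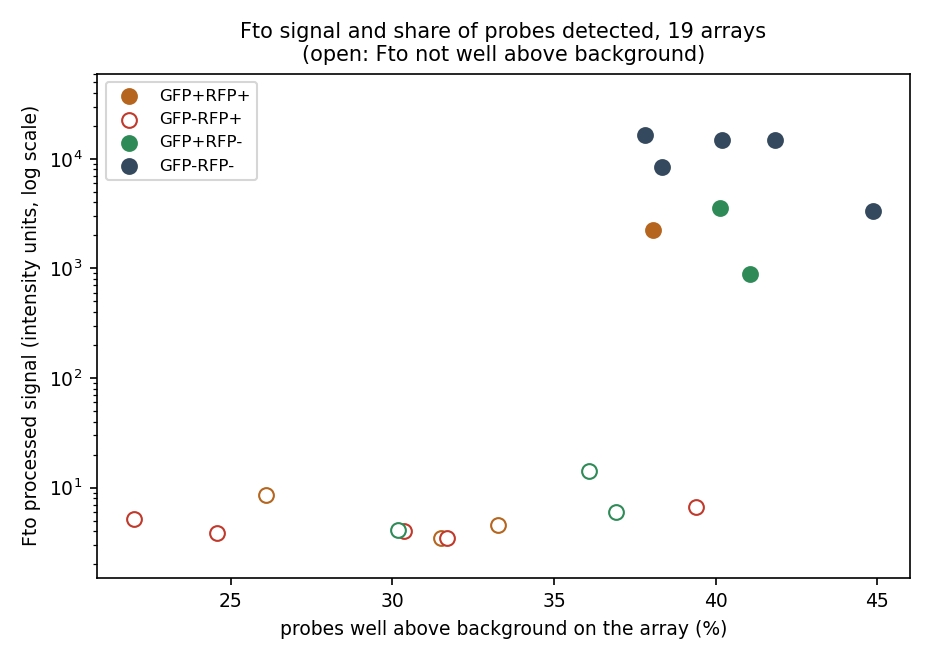
Fto processed signal (y axis, intensity units, log scale) against the percent of probes well above background on the same array (x axis), 1 point per array, coloured by population and open where Fto was not well above background. The arrays that detected Fto lie at 37.8% or above; GFP-RFP+ replicate 3, at 39.4%, did not detect it.

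The comparison of GFP+RFP+ with GFP+RFP- cells asks whether the Foxp3 reporter goes with Fto among cells that report IL-2. Its means use none of the arrays on which Fto was chosen. Its SE, interval and p rest on a spread shared by all 19 arrays, including those. Fto averaged -7.80 ± 4.47 in GFP+RFP+ cells (SD, n = 4) and -7.59 ± 4.29 in GFP+RFP- cells (SD, n = 5). The difference was -0.20 ± 1.93 (SE), with a 95% interval of -4.28 to 3.87 (limma adjusted p = 0.97). The interval is wide, since both groups held bright and dark arrays. Fitted on only these populations, the SE was larger, 2.64. The sign changed with the slide: -3.70 on slide 1, 9.91 on slide 2 and -6.84 on slide 3, where slides 2 and 3 hold 1 GFP+RFP+ array each.

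GFP+RFP- cells stood between the extremes. Their Fto level was lower than that of GFP-RFP- cells by a fitted -7.04 ± 1.82 (SE), and the relative levels of these populations did not overlap. The brightest GFP+RFP- array, at -2.07, lay close below the dimmest GFP-RFP- array, at -1.79. The GFP+RFP+ mean lay 2.69 ± 1.93 (SE) above that of GFP-RFP+ cells, through a single bright array, replicate 4. On the other GFP+RFP+ arrays Fto was not detected, as on every GFP-RFP+ array, and these groups overlapped. Ordered by mean level, GFP-RFP- cells came first, followed by GFP+RFP-, GFP+RFP+ and GFP-RFP+ cells. The step from GFP-RFP- to GFP+RFP- cells was 7.04, where the larger SD of the pair was 4.29. The lower neighbours did not differ beyond their spread. Fto was chosen on the GFP-RFP- and GFP-RFP+ arrays, so this order and its steps are a description.

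Alkbh5, the other enzyme of the family that acts on N6-methyladenosine in messenger RNA, showed no such pattern, and its 3 probes gave different accounts. Probe 1 was well above background on all 19 arrays. Its signal was 3529, 186, 206 and 132 in GFP+RFP+ cells, 234, 293, 14681, 86.0 and 220 in GFP-RFP+ cells, 2059, 180, 144, 202 and 135 in GFP+RFP- cells and 208, 136, 5278, 4603 and 527 in GFP-RFP- cells. Every population held 1 or 2 arrays at 2059 units or above, the others lay at 527 or below, and the groups overlapped throughout.

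Probe 2 was detected on 4 of 19 arrays, 0 of 4 in GFP+RFP+ cells, 0 of 5 in GFP-RFP+ cells, 2 of 5 in GFP+RFP- cells and 2 of 5 in GFP-RFP- cells. Its 4 detected signals were 1279, 1118, 6552 and 4318. Probe 3 was detected on 14 arrays: its signal was 93.0, 4.96, 3.63 and 3.76 in GFP+RFP+ cells, 925, 3.27, 1146, 122 and 7.01 in GFP-RFP+ cells, 639, 2446, 748, 98.2 and 342 in GFP+RFP- cells and 1398, 1254, 1776, 121 and 2706 in GFP-RFP- cells. In GFP+RFP+ cells 1 of 4 arrays detected this probe and in GFP-RFP+ cells 3 of 5 did, against every RFP- array.

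Between GFP+RFP+ and GFP+RFP- cells the probes moved apart. Probe 1, the brightest and the one that stands for the gene, differed by 1.68 ± 1.47 (SE; limma adjusted p = 0.58). Probe 3 differed by -4.62 ± 1.59 (SE), with an unadjusted p of 0.0098 and an adjusted p of 0.18 in the limma fit of every probe, and did not pass the test. Probe 2, which no GFP+RFP+ array detected, was at least 1.64-fold lower there (limma adjusted p = 0.86) and did not pass the test. It met the filter, detection on at least 4 arrays, only through RFP- arrays, so nothing is read from its test. Probe 1 was thus higher in GFP+RFP+ cells and probe 3 was lower, and neither passed the test.

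**Figure D3:**
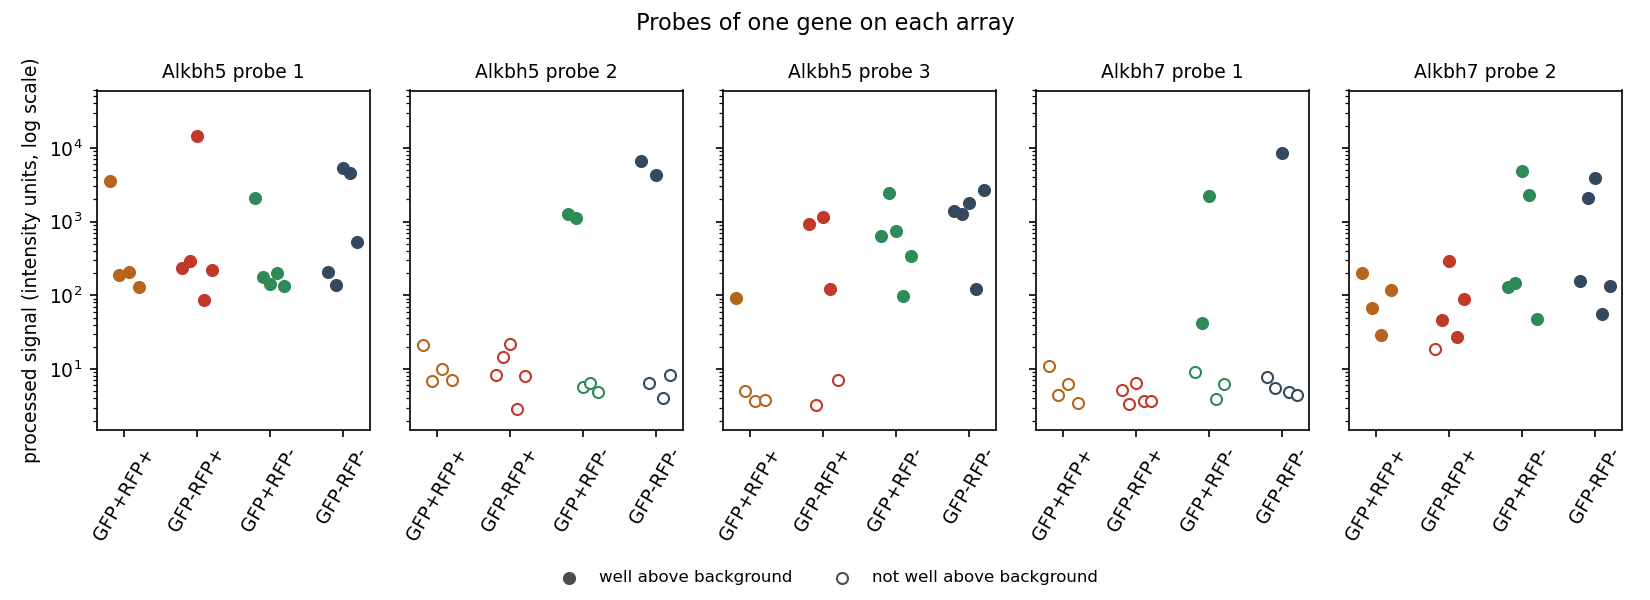
Processed signal (y axis, intensity units, log scale) of the 3 Alkbh5 and the 2 Alkbh7 probes in the 4 populations (x axis), 1 point per array, filled where well above background. Alkbh5 probe 1 is filled on all 19 arrays and probe 2 on 4, and Alkbh7 probe 1 is filled on 3 arrays and probe 2 on 18.

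Alkbh1, which acts on transfer RNA in the cytoplasm and in mitochondria, was detected on 12 of 19 arrays. Its signal was 498, 4.48, 3.44 and 3.40 in GFP+RFP+ cells, 5.15, 7.28, 154, 5611 and 3971 in GFP-RFP+ cells, 2216, 5.88, 741, 2532 and 2615 in GFP+RFP- cells and 1009, 3562, 6065, 4.90 and 4667 in GFP-RFP- cells. Like Fto it was bright or dark, but the dark arrays were spread over all 4 populations: 3 of 4 in GFP+RFP+ cells, 2 of 5 in GFP-RFP+ cells, 1 of 5 in GFP+RFP- cells and 1 of 5 in GFP-RFP- cells. The difference of GFP+RFP+ from GFP+RFP- cells, -4.25 ± 2.62 (SE), did not pass the test (limma adjusted p = 0.41). By unscaled signal its brightest array was GFP-RFP- replicate 3, where Alkbh1 was brighter than 91.3% of all probes. By relative level its highest array was GFP-RFP+ replicate 4, at -0.46, where Alkbh1 was brighter than 95.2% of all probes.

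Alkbh8, which modifies the wobble uridine of some transfer RNAs, was detected on 4 arrays. Its signal was 6.88, 170, 3.18 and 964 in GFP+RFP+ cells, 4.88, 3.19, 5.74, 3.24 and 3.47 in GFP-RFP+ cells, 8.14, 5.71, 6.54, 3.65 and 188 in GFP+RFP- cells and 6.57, 288, 7.69, 4.53 and 3.09 in GFP-RFP- cells. The 2 detected GFP+RFP+ arrays, 170 and 964, lay on either side of the other 2 detected signals. GFP+RFP+ exceeded GFP+RFP- cells by 3.16 ± 1.54 (SE; limma adjusted p = 0.30). GFP+RFP+ exceeded GFP-RFP+ cells, in which no array detected Alkbh8, by 3.76 ± 1.54 (SE; limma adjusted p = 0.88). Under normexp, another background correction, the first of these passed the test at 2.26 ± 0.71 (SE; limma adjusted p = 0.031), in a fit that called 24.4% of all genes. Tests required detection on at least 4 arrays, and Alkbh8 met this only through its GFP+RFP+ arrays. Nothing is therefore read from its tests of GFP+RFP+ against the other populations.

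The DNA repair enzymes were detected on few arrays. Alkbh2 was well above background on 2 arrays, GFP-RFP+ replicate 3 with 1637 and GFP-RFP- replicate 4 with 22.4 units, while the other 17 lay at 7.07 or below. It fell short of the filter, detection on 4 arrays, and was not tested. Alkbh3 was detected on 5 arrays: 1 GFP+RFP+ array at 1577, 1 GFP-RFP+ array at 604, 1 GFP+RFP- array at 810, and 2 GFP-RFP- arrays at 1236 and 22.7 units. Its other arrays lay between 2.68 and 12.9, and the 4 populations overlapped fully. GFP+RFP+ and GFP+RFP- cells differed by 1.32 ± 2.31 (SE; limma adjusted p = 0.81).

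Alkbh4, known for demethylating actin, was the steadiest member. It was detected on all 19 arrays, with signals of 121 to 215 in GFP+RFP+ cells, 66.3 to 279 in GFP-RFP+ cells, 181 to 1224 in GFP+RFP- cells and 105 to 7024 in GFP-RFP- cells. Its median signal was 192 units in GFP+RFP+ cells, 209 in GFP-RFP+ cells, 483 in GFP+RFP- cells and 255 in GFP-RFP- cells. The relative level differed by -0.22 ± 1.05 (SE) between GFP+RFP+ and GFP+RFP- cells (limma adjusted p = 0.94). Its residual SD, 1.60, was larger than that of 48.6% of the genes tested, against 96.2% for Alkbh1 and 77.5% for Fto.

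Alkbh7, a mitochondrial member tied in mouse and human cells to programmed necrosis, was detected by probe 2 on 18 arrays and by probe 1 on 3. Probe 2 gave 198, 67.1, 28.8 and 117 units in GFP+RFP+ cells, 18.6, 45.8, 296, 27.1 and 89.0 in GFP-RFP+ cells, 129, 147, 4847, 2285 and 47.9 in GFP+RFP- cells and 158, 2103, 3948, 55.2 and 132 in GFP-RFP- cells. The signals of 2103 and above were in RFP- cells, 2 arrays in each population, but the ranges overlapped. Probe 1 was detected on GFP+RFP- replicates 2 and 3 (41.8 and 2241 units) and on GFP-RFP- replicate 3 (8646 units). By probe 2, GFP+RFP+ differed from GFP+RFP- cells by -1.03 ± 1.45 (SE; limma adjusted p = 0.75).

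Alkbh6, whose substrate is not established, was detected on 11 arrays. Above background it was seen on 3 of 4 GFP+RFP+ arrays at 27.5 to 250 units, 2 of 5 GFP-RFP+ arrays at 524 and 684 units, 4 of 5 GFP+RFP- arrays at 330 to 1981 units and 2 of 5 GFP-RFP- arrays at 1703 and 2830 units. The largest of its tested differences, 2.38 ± 2.13 (SE), was between GFP+RFP- and GFP-RFP- cells and did not pass the test (limma adjusted p = 1.00).

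**Figure D4:**
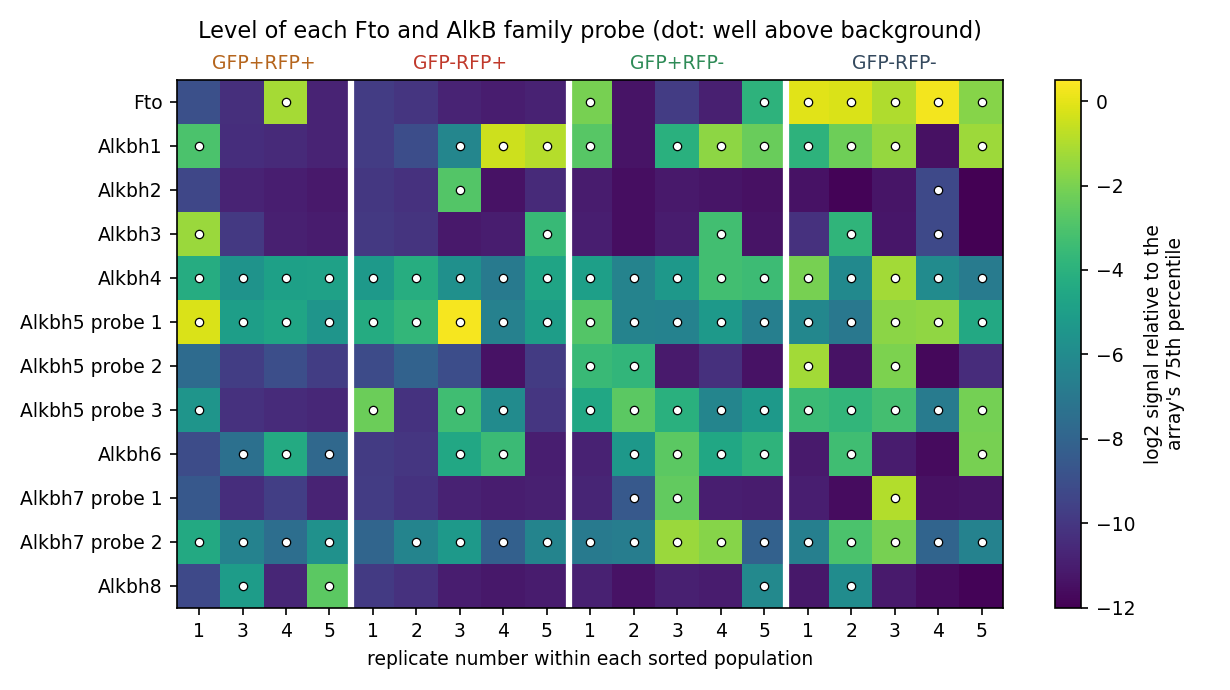
Level of the 12 probes (rows) on the 19 arrays (columns, grouped by population and numbered by replicate), as log2 signal relative to the array's 75th percentile (colour). Dots mark probes well above background. Fto is dotted on 5 arrays of GFP-RFP- cells and none of GFP-RFP+ cells, and Alkbh4 and Alkbh5 probe 1 on all 19. The dots of Alkbh1, Alkbh3 and Alkbh6 are scattered over the populations. Alkbh8 is dotted on 4 arrays, none of them of GFP-RFP+ cells.

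Across the family, 8 of 9 genes passed the filter and entered the tests. Between GFP-RFP+ and GFP-RFP- cells 1 of the 8, Fto, was called, at a background of 1.7% of genes called in either direction and 1.23% called lower. Since Fto was chosen on this comparison, nothing is read from that count. By the brightest probe of each gene, the 7 other members differed by -1.60 to 0.34 in that comparison, and all overlapped between the groups. Alkbh5 probes 2 and 3 lay below this range, at -2.14 and -2.49, and also overlapped between the groups. No GFP-RFP+ array detected probe 2. None of the 8 was called between GFP+RFP+ and GFP+RFP- cells, where 0.204% of genes were. None of the 7 Alkbh genes was called between GFP+RFP- and GFP-RFP- cells, where 0.0097% of genes were, or between GFP+RFP+ and GFP-RFP+ cells, where 0.00485% of genes were. At shares this low a count of 0 carries little information. For the Alkbh genes in these 3 comparisons the unadjusted p was under 0.05 in 1 case, Alkbh8 between GFP+RFP+ and GFP-RFP+ cells, 3.76 ± 1.54 (SE; unadjusted p = 0.026, limma adjusted p = 0.88). Alkbh8 met the filter only through its GFP+RFP+ arrays, the population where it was highest, so nothing is read from that p. The comparisons that share a population share its arrays.

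The median difference over the 8 genes lay within 0.5 of the median of all genes in each comparison. Between GFP-RFP+ and GFP-RFP- cells it was -0.63, beside -0.29 for all genes, and between GFP+RFP+ and GFP+RFP- cells it was -0.21, beside 0.22. Between GFP+RFP- and GFP-RFP- cells it was -0.28, beside -0.02, and between GFP+RFP+ and GFP-RFP+ cells it was 0.72, beside 0.41.

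**Figure D5:**
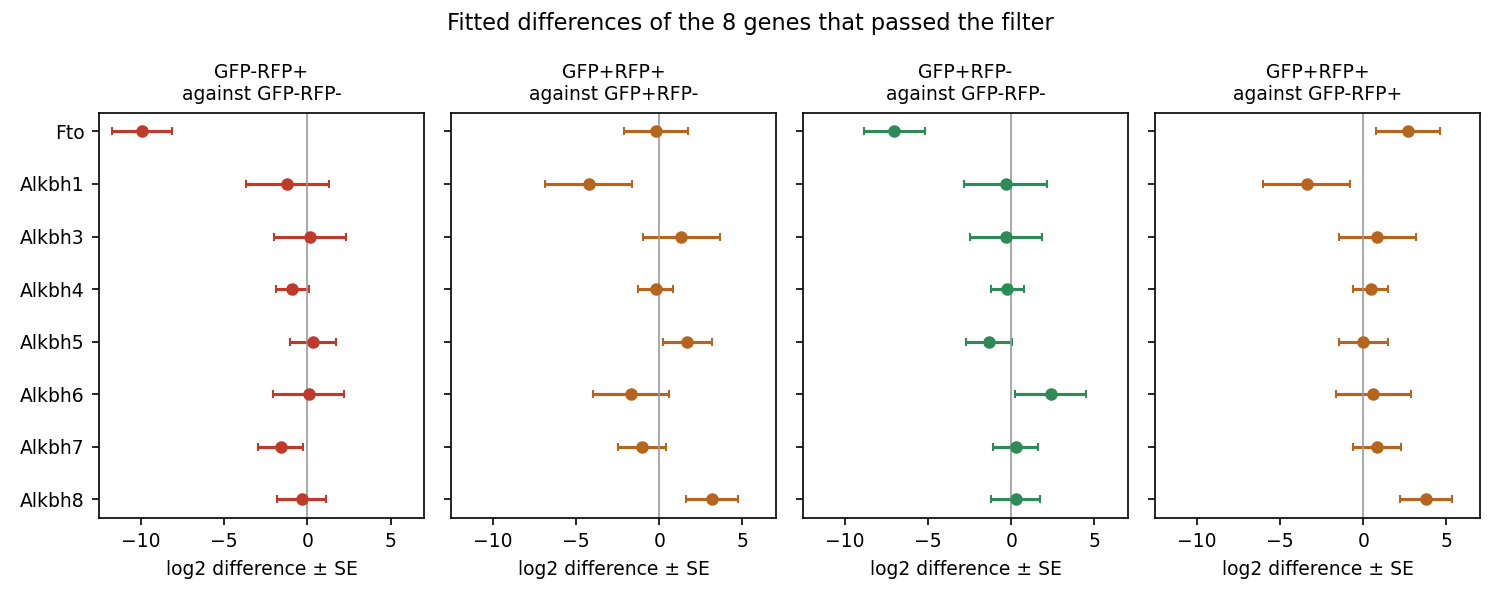
Fitted log2 differences (x axis, with SE as bars) of the 8 genes that passed the filter (rows), 1 panel for each comparison of populations, the first-named minus the second. Fto stands at -9.93 in the first panel and -0.20 in the next; no Alkbh difference in the other 3 panels passed the test.

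Whether the RFP difference depends on the GFP reporter was asked with the interaction, the difference between GFP+RFP+ and GFP+RFP- cells minus that between GFP-RFP+ and GFP-RFP- cells. For Fto it was 9.73 ± 2.66 (SE), given without a p because it contains the comparison that chose the gene. For the 7 Alkbh genes it was between -3.06 and 3.51, and none passed the test (limma adjusted p = 0.999 for each, with 2 of 20620 genes called).

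Over the 19 arrays the genes whose relative level followed that of Fto most closely were Dbf4 (Pearson r = 0.973), Stx17 (0.920), Ap2b1 (0.894), Commd6 (0.879) and Sf3b6 (0.875). Dbf4 activates the replication kinase Cdc7, Stx17 is a fusion protein of autophagosomes, and Ap2b1 is a subunit of the endocytic clathrin adaptor. Dbf4 was detected on exactly the same 8 arrays as Fto, and no other of the 20620 genes was. All 19 points share the differences in detection between arrays, and 28 of 11488 genes with a usual symbol had r over 0.8, with a median r of 0.133. The Alkbh genes did not follow Fto: their r ranged from -0.141 for Alkbh6 to 0.240 for Alkbh4.

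The genes that write and read N6-methyladenosine were compared next. Of the 9 measured writer genes 1 was called lower in GFP-RFP+ cells than in GFP-RFP- cells, and none was called higher. It was Mettl14, the RNA-binding partner of the catalytic subunit Mettl3, detected in GFP-RFP+ cells on 1 of 5 arrays and in GFP-RFP- cells on 5 of 5, with a difference of -7.36 ± 1.63 (SE; limma adjusted p = 0.035). The median over the 9 was -2.56, beside -0.29 for all genes. Mettl14 was detected on 0 of 4 GFP+RFP+ arrays, against 4 of 5 in GFP+RFP- cells, and did not pass the test (limma adjusted p = 0.079), and no writer did. The call of Mettl14 was lost on leaving out replicate 1, 2 or 5 of the GFP-RFP+ cells, or replicate 1, 2, 3 or 5 of the GFP-RFP- cells, with adjusted p up to 0.079. Of 10 readers on the array, 6 were measured and none was called in any comparison. Hnrnpc, which binds RNA opened by the mark, differed by -1.88 ± 0.64 (SE; limma adjusted p = 0.11) in GFP-RFP+ against GFP-RFP- cells and was detected on all arrays of both.

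Of 11 enzymes that work with or against the AlkB members on transfer RNA, DNA or RNA, 10 were measured. By sign, 8 of the 10 were lower in GFP-RFP+ than in GFP-RFP- cells, and 7 in GFP+RFP+ than in GFP+RFP- cells. Over all genes, 1.23% and 0.116% were called lower in these comparisons. The groups of these 2 comparisons share no arrays, but the model's spread is shared. Of the 10, 1 gene was called lower in both, and none was called higher. It was Trmt10c, a subunit of mitochondrial RNase P that places methyl groups on mitochondrial transfer RNA. In GFP+RFP+ cells 0 of 4 arrays detected it and in GFP+RFP- cells 5 of 5 did, so it was at least 64.5-fold lower (limma adjusted p = 0.011). In GFP-RFP+ against GFP-RFP- cells it was detected on 1 of 5 and 5 of 5 arrays and differed by -5.97 ± 1.02 (SE; limma adjusted p = 0.011). Without GFP+RFP+ replicate 4 the adjusted p of the first was 0.065. None of 6 measured genes of 7 in alkylation damage repair was called. The nearest was Apex1, the abasic site endonuclease, at -6.94 ± 2.19 (SE; limma adjusted p = 0.094) in GFP-RFP+ against GFP-RFP- cells.

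Of 15 further dioxygenases that use 2-oxoglutarate, 14 were measured. In GFP-RFP+ against GFP-RFP- cells 3 of them were called lower and none higher, beside 1.23% and 0.47% of all genes. By sign, 12 of the 14 were lower and 2 higher. Jmjd6, a lysyl hydroxylase of splicing factors, averaged -8.11 ± 1.05 in GFP-RFP+ cells and -1.33 ± 2.81 in GFP-RFP- cells (SD, n = 5 each; limma adjusted p = 0.0059). Kdm4a, a histone demethylase, was at least 74.0-fold lower (limma adjusted p = 0.013), and Egln1, the oxygen-sensing prolyl hydroxylase, at least 22.7-fold lower (limma adjusted p = 0.023). Kdm4a and Egln1 were detected in GFP-RFP+ cells on 0 of 5 arrays and in GFP-RFP- cells on 5 of 5, and Jmjd6 in GFP-RFP+ cells on 4 of 5 and in GFP-RFP- cells on 5 of 5. Jmjd6 alone of the 14 was called between GFP+RFP+ and GFP+RFP- cells, with a mean of -7.67 ± 0.60 in GFP+RFP+ cells (SD, n = 4) and -0.34 ± 0.76 in GFP+RFP- cells (SD, n = 5; limma adjusted p = 0.011). Leaving out GFP+RFP+ replicate 4 gave an adjusted p of 0.055 there, and the Egln1 call was lost without replicate 5 of the GFP-RFP+ cells, or replicate 1 or 3 of the GFP-RFP- cells, with adjusted p up to 0.062. No gene of any of these lists was called between GFP+RFP- and GFP-RFP- or between GFP+RFP+ and GFP-RFP+ cells.

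With each array's percent of detected probes in the model, none of the 5 genes passed the test between GFP-RFP+ and GFP-RFP- cells, with limma adjusted p of 0.57 for Mettl14, 0.43 for Trmt10c, 0.0896 for Jmjd6, 0.42 for Kdm4a and 0.42 for Egln1. Between GFP+RFP+ and GFP+RFP- cells Trmt10c and Jmjd6 still passed it, at 0.0337 and 0.0283, but with scan as a block, a setting chosen after seeing the data, neither did, at 0.0862 and 0.0723. Without the 3 arrays under 30% the 5 calls between GFP-RFP+ and GFP-RFP- cells were also lost, at 0.101 for Mettl14, 0.0691 for Trmt10c, 0.0509 for Jmjd6, 0.0686 for Kdm4a and 0.0755 for Egln1. Within single slides, which hold few arrays of each population, none of these calls was kept except that of Kdm4a on slide 1 (limma adjusted p = 0.0449). Of the 5 genes that neighbour Fto on the chromosome 2 were measured, and neither was called. Rbl2, a pocket protein of the retinoblastoma family, differed by -5.24 ± 2.25 (SE; limma adjusted p = 0.18) and Aktip by -0.66 ± 1.86 (SE; limma adjusted p = 0.87) in GFP-RFP+ against GFP-RFP- cells.

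Of the measured markers of other cell types, 1 was called. Cd79b, a chain of the B cell receptor and 1 of 4 measured B cell markers, fell in GFP-RFP+ against GFP-RFP- cells (-6.34 ± 1.51, SE; limma adjusted p = 0.043; detected on 2 of 5 and 5 of 5 arrays). The 3 others did not pass the test there, at -1.26 for Cd79a, 1.81 for Ebf1 and 0.71 for Pax5, and the median of the 4 was -0.28, beside -0.29 for all genes. Summed B cell markers, as a multiple of the array's 75th percentile, ranged from 0.0118 to 0.0253 in GFP+RFP+ cells, 0.00807 to 0.528 in GFP-RFP+ cells, 0.0317 to 1.43 in GFP+RFP- cells and 0.112 to 0.898 in GFP-RFP- cells, and Cd79a was detected on no GFP+RFP+ array. Summed myeloid and dendritic markers, 6 of 8 measured, ranged from 12.0 to 26.2 in GFP+RFP+ cells and 8.10 to 23.9 in GFP-RFP+ cells. They ranged from 6.66 to 12.6 in GFP+RFP- cells and 6.07 to 8.07 in GFP-RFP- cells. These sums mainly reflect 1 gene, Itgam, whose population means were 2.69 to 4.10 (log2), while those of the others were -0.76 or below. Itgam was higher in RFP+ cells, by 1.17 ± 0.37 among GFP- cells and 1.12 ± 0.39 among GFP+ cells (SE; limma adjusted p = 0.094 and 0.17). The other measured ones differed by -0.55 to 0.48 with RFP, and none of the 6 was called. None was called either among NK and CD8 T cell markers (4 of 6 measured) or erythroid and platelet markers (1 of 6 measured). Gpr83, a Treg marker, was at least 24.5-fold higher in GFP-RFP+ than in GFP-RFP- cells (limma adjusted p = 0.033; detected on 4 of 5 and 0 of 5 arrays). The 6 other measured Treg markers did not pass the test there, with 4 positive differences of 0.89 to 2.61 and 2 negative ones, -3.64 for Ctla4 and -1.98 for Tnfrsf18. The part of these cells in the values of Fto and its relatives was not tested.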

How the data were processed

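Per the file headers, the authors made 1 scanner file per array with Agilent Feature Extraction, version 10.7.3.1. The intensity values deposited by the authors are its processed signals, on a linear scale, with background and spatial trend removed inside each array and no scaling between arrays. Per the labels' protocols, bead-isolated messenger RNA was copied to cDNA, amplified by PCR and given a Cy3 label. The authors also deposited log2 values for the whole series, with an unstated normalization, which served as an alternative here. Gene names and mm9 coordinates are those of the files.

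Flagged spots were dropped and repeated spots averaged. The log2 signal was scaled to the 75th percentile of each array over 6612 probes that all 19 arrays detected. A filter kept 28101 probes with detection on 4 or more arrays, and the brightest probe of each gene was tested, 20620 genes in all. One limma 3.58.1 model (R 4.3.3, package data.table at version 1.17.8) covered the 4 groups, with calls at a Benjamini-Hochberg adjusted p under 0.05 over all genes. The fit was tested on simulated data. Figures used Python 3.11.15, pandas 2.3.3 and matplotlib 3.10.9.

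The members, gene lists and tests were chosen with earlier results of these data known. Named genes are all members, Foxp3 and Il2, called list genes (or up to 2 with the smallest p where a list had none), and the 5 genes most like Fto. Precision is limited by the number of arrays. Titles gave the groups; the labels speak of 5 replicates, and 4 GFP+RFP+ arrays were analysed. No p is given for members in the comparison that chose Fto, or for Fto in comparisons sharing its arrays. One B cell marker is not reported here.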

Additional observations from a re-analysis of the deposited data

Results flagged for a closer look

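In 13 of 48 sets of a probe and a population, 1 array lay far from the others of its group, by a gap rule on the relative log2 level. For smoothly varying values chance alone meets this rule in about 1 set in 20. Many levels here jumped between background and bright, where that rate need not apply, so the count is a description. Alkbh1 was high in GFP+RFP+ replicate 1 (-3.06) and low in GFP+RFP- replicate 2 (-11.35) and GFP-RFP- replicate 4 (-11.45). Alkbh2 stood out in GFP-RFP+ replicate 3 (-2.84) and GFP-RFP- replicate 4 (-9.25). Alkbh3 stood out in GFP+RFP+ replicate 1 (-1.39), GFP-RFP+ replicate 5 (-3.59) and GFP+RFP- replicate 4 (-3.26). Alkbh5 was high in GFP+RFP+ replicate 1 by probe 1 (-0.23) and by probe 3 (-5.48). Alkbh7 probe 1 was high in GFP-RFP- replicate 3 (-0.95), and Alkbh8 in GFP+RFP- replicate 5 (-6.13) and GFP-RFP- replicate 2 (-5.91). Of the 13, 4 were in GFP+RFP+ replicate 1, the array with 26.1% of probes detected. In 11 sets the array that stood apart had the probe well above background, and in the other 2 it was the array without it. No set of Fto met the rule.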

How the results depend on the processing

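Between GFP-RFP+ and GFP-RFP- cells, the comparison that chose Fto, the count of called family members is a description only, and was 0 in place of 1 under 6 settings: detection required on all arrays (2 members left to test), each of slides 1, 2 and 3 alone, the share of detected probes in the model, and leaving out the 3 arrays under 30%. Between GFP+RFP+ and GFP+RFP- cells it was 1 in place of 0 under normexp (Alkbh8). Leaving out each array in turn kept 1 and 0. Fto differed by -5.96 (normexp) to -10.3 between GFP-RFP+ and GFP-RFP- cells over 38 settings with no change of sign. Between GFP+RFP- and GFP-RFP- cells it differed by -11.1 on slide 2 alone and -2.11 on slide 3 alone, and between GFP+RFP+ and GFP-RFP+ cells by 8.90 on slide 2 alone.

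Between GFP+RFP+ and GFP+RFP- cells the sign of the uncalled Fto difference turned under the percentile over all probes (0.36), normexp (0.60), slide 2 alone (9.91), array weights (0.0823), the detection covariate (0.96), without the arrays under 30% (0.17) and scan as a block, chosen after seeing the data (1.23). Leaving out 1 array gave -2.40 to 1.18. The cause was not tested.

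Counts over all genes moved far more: from 351 between GFP-RFP+ and GFP-RFP- cells to 4031 with the percentile over all probes, 3473 with quantile normalization, 2208 with median centring, 4849 with normexp, 3600 in the series table, 5 with the covariate, and 85 to 1165 leaving out 1 array. The share called higher was 27.6%, against 87.1%, 81.8%, 74.5%, 84.8% and 81.3% under the first 5. The median of all genes was -0.29, against 1.02, 0.23, 0.25, 0.38 and 0.23. Between GFP+RFP+ and GFP+RFP- cells the count moved from 42 to 5021 with normexp, 10 with the percentile over all probes, 24 with quantile normalization, 16 with median centring, 22 in the series table, 6 with scan as a block, and 2 to 300 leaving out 1 array. Its share called higher was 42.9%, against 94.4%, 0%, 29.2%, 0% and 22.7% under the first 5. Slide as a block called 1236 genes between GFP-RFP+ and GFP-RFP- cells, and single slides 0 to 87. Between GFP+RFP- and GFP-RFP- cells 2 genes were called, against 0 to 9 under other settings and 1 to 12 leaving out 1 array, and between GFP+RFP+ and GFP-RFP+ cells 1, against 1 to 11 and 1 to 20.

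With the replicate number as a block, Fto differed by -0.45 between GFP+RFP+ and GFP+RFP- cells, no member's call changed, and 198 and 8 genes were called in the 2 comparisons of RFP. Same-numbered arrays did not deviate together (27 pairs, r from -0.074 to 0.093), and 6 of 19 arrays correlated best with one of their own number, so the block is given here only.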
